A study of Mus musculus with 7 samples.

Results

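The 39 genes described here encode the cell adhesion receptors called integrins and part of the matrix they hold: 18 integrin alpha chains, 8 integrin beta chains, 10 laminin chains, the 2 nidogens and osteopontin (Spp1). They were chosen by gene symbol from the 23282 gene entries of each deposited table. All 39 passed the filters on low values and were tested in each of 3 comparisons. RNA came from whole uterine tissue of female C57BL/6 mice aged 6 weeks. Recombinant human CXCL12, a chemokine that acts through CXCR4 and CXCR7, was given at 100 ng in 30 µl of saline to one uterine horn, and the opposite horn received saline alone. The saline group holds 2 libraries, whose day after infusion the labels do not state, the CXCL12 Day 3 group 2 libraries and the CXCL12 Day 8 group 3 libraries. All horns therefore shared anaesthesia, surgery and an infusion of fluid, and no untreated uterus was part of these groups.

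Each integrin is a pair of one alpha and one beta chain in the cell membrane, and the pair decides which ligand is bound. The αv integrins and α5β1 bind ligands that carry the short peptide RGD, such as osteopontin and fibronectin, α6β4 and α3β1 bind laminins under epithelia, α1β1, α2β1, α10β1 and α11β1 bind collagens, and the β2 and β7 integrins are carried by leukocytes. Laminins are trimers of an alpha, a beta and a gamma chain that form the sheet of basement membranes, and nidogens link this sheet to the collagen network. In the uterus, αvβ3 and osteopontin are widely used as markers of the phase in which the endometrium can receive an embryo.

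The libraries were made with the QuantSeq 3′ kit, in which an oligo-dT primer starts each copy at the poly(A) tail, so that a level counts transcript ends and does not grow with gene length. Levels are given as CPM, the gene's counts as a share of the library total, scaled by the TMM method over all 7 libraries, and are listed in the order of the replicate numbers. The 6 libraries deposited as counts held between 6908790 and 12308982 counts, and a gene at 3 counts has between 0.2437 and 0.4342 CPM there before TMM scaling. Day 3 replicate 1 was deposited as log2 values of normalized counts, so its values below 1 CPM need not be whole reads. Day 8 replicate 1 was placed by its sample label, although its table is named for Day 3. Across genes, this library correlated with the Day 3 libraries at 0.947 and 0.948 (Pearson's r on log2 values) and with the other Day 8 libraries at 0.892 and 0.894. With saline replicates 1 and 2 the values were 0.891 and 0.942, so it was nearly as close to a saline library as to Day 3. Results at Day 8 are also given without it. It was the lowest of the 7 libraries for 18 of the 39 genes, and saline replicate 1 was the highest for 12. Nothing in the labels says that libraries of one group came from separate animals, so the P values measure the spread between these libraries.

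**Figure D1:**
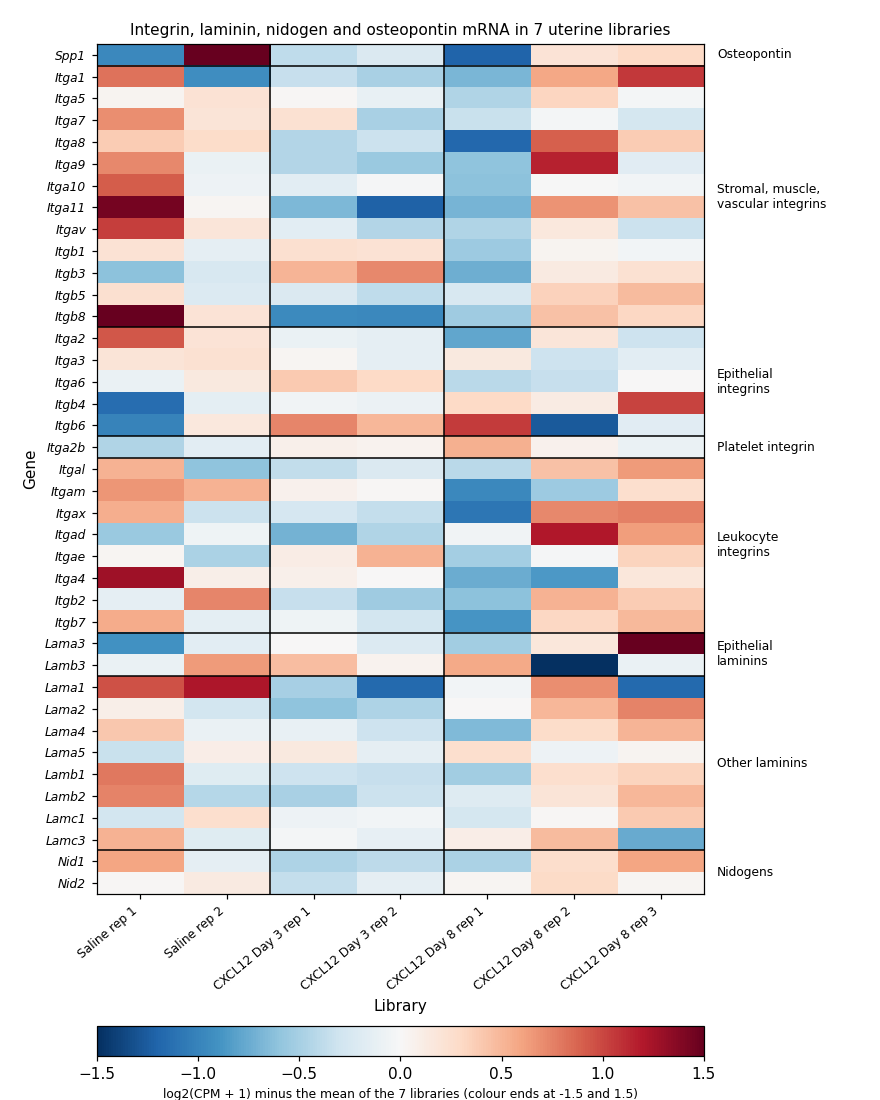
Level of the 39 genes (vertical axis, grouped by role) in the 7 libraries (horizontal axis), as log2(CPM + 1) minus the mean over the libraries; red is above and blue below that mean. The Day 3 libraries resemble each other, Day 8 replicate 1 is blue for many genes, and Spp1 is far above its mean in saline replicate 2 alone.

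Few of the adhesion genes changed. A gene is said here to have passed where it differed at least 2-fold with an unadjusted P under 0.05. The tests were edgeR's quasi-likelihood test (Day 8 against saline) and limma (the comparisons with Day 3). The study's methods set both cutoffs together with an FDR of 0.1, so passing here is less strict, and adjusted p is given separately. At Day 8, 2 of 39 passed against saline (5.13%, beside 2.94% of all 15388 genes tested), namely the hemidesmosome chain Itgb4, which was higher, and the leukocyte chain Itga4, which was lower. At Day 3, 4 of 39 passed against saline (10.3%, beside 4.51% of 14876 genes), with Itgb3 higher and Itga11, Itgb8 and Lama1 lower. Between the days, 3 of 39 passed (7.69%, beside 4.66%), namely Itgad, Itgb8 and Lama2, all higher at Day 8 than at Day 3. By direction, the shares of all genes that passed were 1.53% higher and 1.42% lower at Day 8 against saline, 1.90% higher and 2.61% lower at Day 3 against saline, and 2.25% higher and 2.41% lower between the days. An unadjusted P under 0.05 at any fold change was reached by 3 of the 39 at Day 8 against saline (beside 4.28% of all genes), 5 at Day 3 against saline (beside 7.36%) and 3 between the days (beside 7.19%). With all libraries in the fit, none of the 39 passed a Benjamini-Hochberg adjusted p of 0.1 in any comparison, and neither did any other gene by edgeR's quasi-likelihood test or limma with the filters on low values. DESeq2 gave 49 genes with an adjusted p under 0.1 for Day 8 against saline, and limma without a filter gave 36 for Day 3 against saline and 28 between the days, none of them among the 39. With 1 library left out such genes appeared in 3 cases. Without saline replicate 2, 2347 genes passed at Day 3 against saline, with Itga11, Itgav, Itgb8, Lamb1 and Lamb2 among them, and this fit rests on a single saline library. Without Day 8 replicate 1, 484 passed between the days, Lama2 among them, and 15 at Day 8 against saline by edgeR, none among the 39. The median log2 fold change of the 39 was -0.08 at Day 8 and -0.37 at Day 3 against saline, beside medians of -0.01 and 0.01 over all genes, and both comparisons use the same saline libraries. These medians moved with single libraries. At Day 8 the sign turned without saline replicate 1 (0.01) or Day 8 replicate 1 (0.09), and the median was -0.26 without Day 8 replicate 3, -0.24 without saline replicate 2 and -0.20 without Day 8 replicate 2. At Day 3 it was -0.18 without saline replicate 1 and -0.71 without saline replicate 2, and -0.73 without quantile normalization, which moved the median of all genes to -0.26. Without Day 8 replicate 1, 2 of 39 passed against saline (Itgb4 and Lama3, beside 6.69% of all genes) and 7 of 39 passed against Day 3 (beside 11.3%).

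The libraries of the compared groups did not overlap for 9 of the 39 genes at Day 8 against saline (23.1%, beside 19.3% of all genes), 3 of them higher (9.17% of all genes) and 6 lower (10.1%). At Day 3 against saline, where 2 libraries meet 2, this held for 23 of 39 (59%, beside 46.4%), with 7 higher (24.0%) and 16 lower (22.4%). Day 8 and Day 3 did not overlap for 10 of 39 (25.6%, beside 31.7%), with 8 higher (15.7%) and 2 lower (16.0%) at Day 8. These counts use the scale of each test, which gave another answer than the printed CPM in 7 cases, as for Itga4 and Itgb1 at Day 3.

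**Figure D2:**
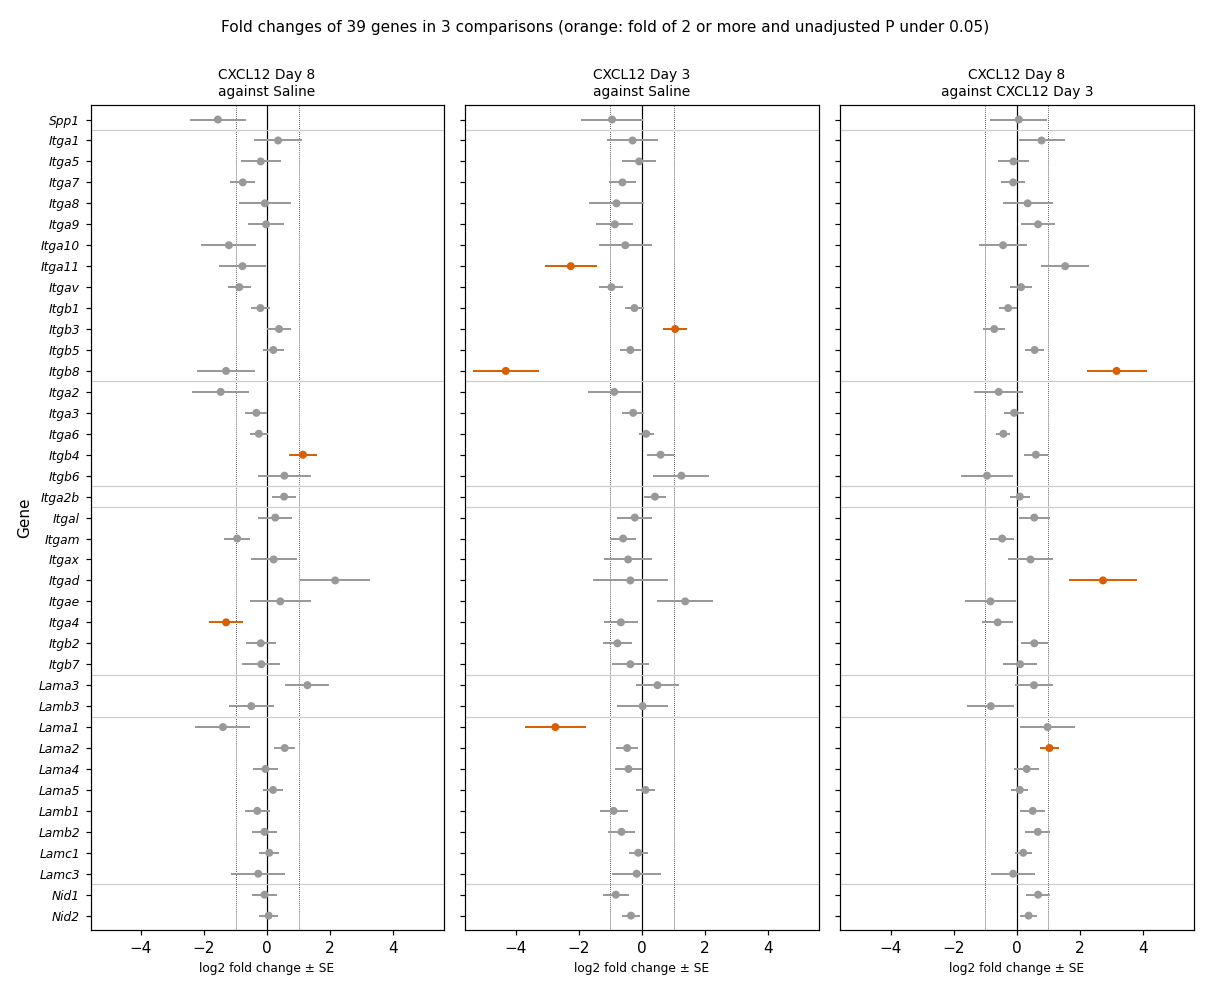
Log2 fold change (horizontal axis, point) with its standard error (line) for each of the 39 genes (vertical axis) in the 3 comparisons; dotted lines mark a fold change of 2, and orange marks the genes that passed. The lines span the standard error to each side, and in each comparison some cross 0 and others do not. Itgb8 lies farthest from 0, at -4.32 for Day 3 against saline.

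Osteopontin did not pass in any comparison, and its level in saline depended on the library. Spp1, which codes for this secreted RGD ligand and is also made in quantity by macrophages, stood at 6.41 and 68.3 CPM in the saline libraries, 10.1 and 11.5 at Day 3 and 5.32, 15.7 and 16.9 at Day 8. The saline libraries thus differed 10.6-fold and enclosed both Day 3 values and the 2 upper Day 8 values, while the lowest value of all was in Day 8 replicate 1. The log2 fold change was -1.56 (SE 0.88) at Day 8 and -0.95 (SE 0.99) at Day 3, with adjusted p of 0.956 by edgeR and 0.74 by limma. Without saline replicate 2 the sign turned, to 0.98 at Day 8 and 0.73 at Day 3, and without saline replicate 1 the values were -2.43 and -2.64 and passed. Without Day 8 replicate 1 the Day 8 value was -1.20. The macrophage and neutrophil lysozyme gene Lyz2 stood at 29.5 and 184 CPM in the same saline libraries, 75.7 and 40.2 at Day 3 and 36.0, 128 and 133 at Day 8. Saline replicate 2 was highest and saline replicate 1 lowest for Lyz2. The 10 macrophage and leukocyte markers, Lyz2 among them, summed to 537 and 510 CPM in these libraries, with single genes going both ways. Csf1r stood at 121 and 51.3 CPM there, Cx3cr1 at 87.5 and 30.7, Adgre1 at 21.8 and 36.6 and Mrc1 at 61.1 and 77.3. The part of macrophages in the Spp1 values was not tested, and in whole tissue fewer cells of a type and less RNA per cell cannot be told apart.

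The promoters of Spp1 and of Itgav, the alpha chain of most of its receptors, are shown because this ligand and receptor chain differed in which saline library was high. Both run from 250 bases before to 50 bases after an annotated transcription start (RefSeq, GRCm38.p6, the assembly also known as mm10). Their last 50 bases thus lie in the first exon of the transcript that begins there. For Itgav this is not the first start of the gene, which begins upstream of the stretch shown, at 83722303. Capitals in Spp1 (chr5:104434861-104435160, plus strand) mark TATAAA and GAGGAAGT, and capitals in Itgav (chr2:83724147-83724446, plus strand) mark ACTTCCTC, which is GAGGAAGT on the other strand, and GGGCGG.
Spp1: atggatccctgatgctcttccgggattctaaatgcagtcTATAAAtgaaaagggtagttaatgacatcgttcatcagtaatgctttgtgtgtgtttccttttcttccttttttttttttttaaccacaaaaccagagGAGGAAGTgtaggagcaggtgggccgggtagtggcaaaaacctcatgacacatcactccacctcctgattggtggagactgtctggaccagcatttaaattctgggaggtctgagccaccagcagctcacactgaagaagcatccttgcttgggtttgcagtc
Itgav: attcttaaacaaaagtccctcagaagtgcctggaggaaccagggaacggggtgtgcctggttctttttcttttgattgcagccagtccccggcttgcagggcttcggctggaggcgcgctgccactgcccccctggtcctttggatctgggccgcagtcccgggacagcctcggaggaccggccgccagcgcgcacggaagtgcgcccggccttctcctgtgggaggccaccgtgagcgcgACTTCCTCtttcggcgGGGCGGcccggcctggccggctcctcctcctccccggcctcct
GAGGAAGT is a form of the site bound by PU.1, an ETS-family factor of macrophages, and with both strands searched it occurred in 3.28% of 27025 RefSeq promoters of this length. Among the 25 of the 39 genes that matched a promoter, it was found for 4, namely Itgav, Spp1, Itga11 and Itgb7. TATAAA occurred in 14.2% of all promoters and in Spp1 alone among the 25, and GGGCGG, the GC box bound by SP1, in 35.9% of all and in 12 of the 25. The AP-1 site TGANTCA occurred in 7.93% of all and in Itgax and Itga9. These are matches of letters and not measured binding.

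The αv chain was lower after CXCL12 at both times, short of a fold change of 2. Itgav, which pairs with β1, β3, β5, β6 and β8, stood at 56.2 and 30.7 CPM in saline, 24.0 and 19.5 at Day 3 and 19.3, 30 and 21.2 at Day 8. Every CXCL12 library lay below both saline libraries, but Day 8 replicate 2 was within 1 CPM of saline replicate 2. Its log2 fold change was -0.97 (SE 0.38) at Day 3 by limma and -0.88 (SE 0.36) at Day 8 by edgeR, both with an unadjusted P under 0.05 and with adjusted p of 0.624 and 0.956. Without saline replicate 1 these became -0.49 and -0.38, and without saline replicate 2 they were -1.46 and -1.25 and passed. The Day 8 value was -0.76 without Day 8 replicate 1, and -1.09 without Day 8 replicate 2, which passed. The Day 3 value also passed without quantile normalization (-1.24) and by edgeR on estimated counts (-1.06).

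The β3 chain, which completes αvβ3, was higher at Day 3 and spread widely at Day 8. Itgb3 stood at 12.2 and 16.1 CPM in saline, 27.8 and 32.3 at Day 3 and 11.2, 21.3 and 22.8 at Day 8. Both Day 3 libraries lay above all others, 2 Day 8 libraries lay between them and saline, and Day 8 replicate 1 was below both saline libraries. At Day 3 it differed from saline by 1.05 on the log2 scale (SE 0.39, limma, adjusted p of 0.624), or 2.06-fold. It no longer passed without quantile normalization, at 0.79, where the median of all genes moved to -0.26, and when any one library other than saline replicate 2 was left out. At Day 8 the value was 0.38 (SE 0.39, edgeR, adjusted p of 0.956), and 0.64 without Day 8 replicate 1, and neither passed. The difference between Day 8 and Day 3 was -0.72 (SE 0.35, limma, adjusted p of 0.711), so the days were not shown to differ. Itga2b, which pairs with β3 on platelets, stood at 7.26 and 9.10 CPM in saline, 10.9 and 10.7 at Day 3 and 15.4, 10.8 and 9.56 at Day 8, and the 5 platelet markers, Itga2b among them, summed to between 58.9 and 108 CPM with overlapping groups.

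The other β chains that pair with αv did not share one direction. Itgb5, a widely made vitronectin receptor chain, stood at 43.4 and 31.6 CPM in saline, 31.5 and 27.9 at Day 3 and 30.9, 46.8 and 51.4 at Day 8, with no comparison passed. Itgb6, an epithelial chain that activates TGF-β, ranged from 2.05 CPM in Day 8 replicate 2 to 14.2 in Day 8 replicate 1, so the Day 8 libraries alone covered its whole range. Its Day 3 libraries, at 11.2 and 9.33 CPM, lay above saline, at 2.66 and 7.18. The log2 fold change at Day 3 was 1.25 (SE 0.89, limma, not passed). Itgb8, the other TGF-β-activating chain, had 37 and 13 counts in the saline libraries, 0 in Day 3 replicate 2 and 3, 20 and 14 at Day 8, and the table of Day 3 replicate 1 gave a normalized count of 0.047, below 1 read. On the CPM scale these are 4.48 and 1.25 in saline and 0.347, 1.64 and 1.42 at Day 8, with no library of either group as low as Day 3. Taking 3 counts, or 0.311 CPM in Day 3 replicate 2, as the limit of detection, Itgb8 was at least 9.2-fold lower at Day 3 than in saline and at least 3.66-fold lower than at Day 8. The first of these limits rests on saline replicate 1, as it was 14.4-fold with that library alone and 4.01-fold with saline replicate 2 alone. The second was 1.12-fold, 5.28-fold and 4.58-fold for the Day 8 libraries in turn, since Day 8 replicate 1 had just the 3 counts of the limit. The fitted log2 fold changes of -4.32 (SE 1.04) against saline and 3.16 (SE 0.95) for Day 8 against Day 3 depend on the value added before the logarithm, and their adjusted p by limma were 0.624 and 0.687. The latter was 3.73 without Day 8 replicate 1, and no longer passed without Day 3 replicate 2 (2.89). At Day 8 against saline the value was -1.30 (SE 0.91, not passed), and -0.11 without saline replicate 1, -1.95 without saline replicate 2 and -0.88 without Day 8 replicate 1.

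Relative to Itgav within each library, Itgb3 and Itgb5 stood higher after CXCL12 in every library, and Itgb6 did not. The ratio of Itgb3 to Itgav was 0.218 and 0.523 in saline, 1.16 and 1.66 at Day 3 and 0.581, 0.712 and 1.07 at Day 8. The ratio of Itgb5 to Itgav was 0.774 and 1.03 in saline, 1.31 and 1.43 at Day 3 and 1.60, 1.56 and 2.42 at Day 8. In both of these ratios all 5 CXCL12 libraries lay above both saline libraries, Day 8 replicate 1 included. The ratio of Itgb6 to Itgav was 0.0474 and 0.234 in saline, 0.466 and 0.479 at Day 3 and 0.737, 0.0685 and 0.258 at Day 8, where replicate 2 lay below saline replicate 2. Ratios were chosen after the levels had been seen and were not tested, and they compare libraries, not the amounts of the protein chains.

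**Figure D3:**
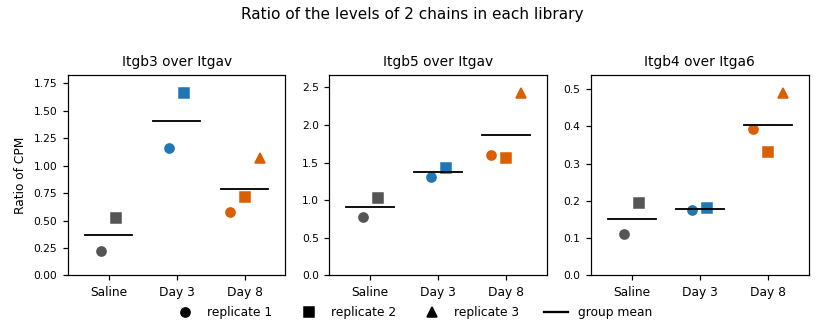
Ratio of the CPM of 2 chains (vertical axis) in each library, by group (horizontal axis), with marker shapes for the replicates and a line for the group mean. Itgb3 over Itgav, Itgb5 over Itgav and Itgb4 over Itga6 are above both saline libraries in all Day 8 libraries, and Itgb3 over Itgav is highest at Day 3.

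Among the epithelial integrins, the β4 chain of the hemidesmosome passed at Day 8 and its partner Itga6 did not. Itgb4 stood at 10.2 and 21.4 CPM in saline, 22.9 and 22.2 at Day 3 and 29.4, 25.9 and 48.9 at Day 8. All Day 8 libraries lay above all others, and saline replicate 1 was the lowest by a margin of 2.1-fold to its own replicate. Day 8 exceeded saline by 1.14 on the log2 scale (SE 0.45, edgeR, adjusted p of 0.956), while at Day 3 the difference was 0.59 (SE 0.42, limma, adjusted p of 0.654) and did not pass, other than without saline replicate 2 (1.07). Without saline replicate 1 the Day 8 value was 0.71 and without Day 8 replicate 3 it was 0.81, neither of which passed, and without Day 8 replicate 1 it was 1.25 and passed. Itga6, the only alpha chain that pairs with β4, stood at 92.7 and 110 CPM in saline, 131 and 122 at Day 3 and 74.8, 78.1 and 100 at Day 8. Its Day 3 libraries were the highest and its Day 8 libraries included the lowest, with a log2 difference between the days of -0.43 (SE 0.22, limma, adjusted p of 0.714) that did not pass. The ratio of Itgb4 to Itga6 was 0.110 and 0.195 in saline, 0.175 and 0.182 at Day 3 and 0.393, 0.332 and 0.489 at Day 8.

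The 10 epithelial markers, keratins and claudins among them, ordered the libraries in another way. Their summed level was 753 and 1098 CPM in saline, 1324 and 1215 at Day 3 and 1299, 621 and 1119 at Day 8, and 1 of 10 passed at Day 8 against saline. Itga3, the laminin receptor chain that pairs with β1, stayed between 7.14 and 10.8 CPM in all 7 libraries. Itga2, a collagen receptor chain of epithelia and platelets, had between 2 and 25 counts in the count libraries and did not pass.

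Of the laminin chains of epithelial basement membranes, neither the alpha chain Lama3 nor the beta chain Lamb3 passed in any comparison. Lama3 stood at 5.81 and 10.4 CPM in saline, 11.8 and 10.1 at Day 3 and 7.87, 13.4 and 38.0 at Day 8. Day 8 replicate 3 was higher than every other library, and the log2 fold change at Day 8 was 1.28 (SE 0.70, edgeR, adjusted p of 0.956). It became 0.38 without that library, and without Day 8 replicate 1 it was 1.66 and passed. Lamb3 was lowest in Day 8 replicate 2 at 1.72 CPM and highest in saline replicate 2 at 11.2 CPM.

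**Figure D4:**
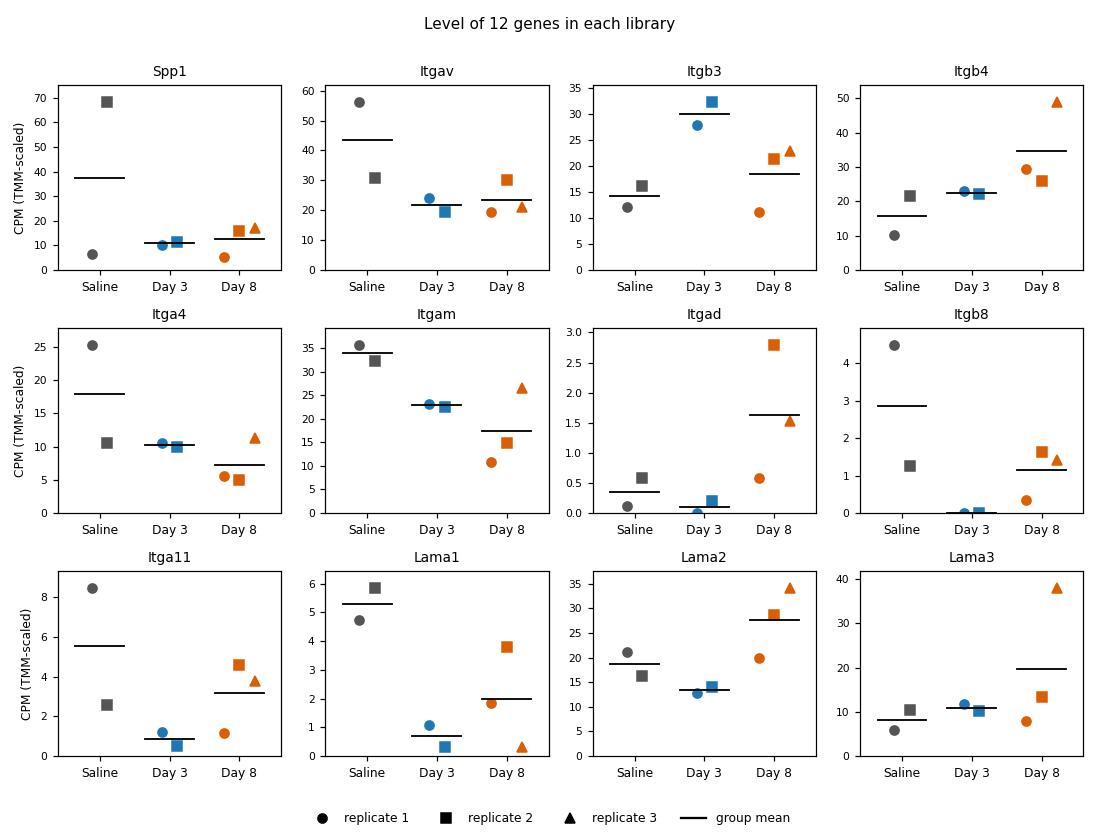
Level (CPM, vertical axis, starting at 0) of 12 of the 39 genes in each library by group (horizontal axis); marker shapes are replicates and lines are group means. Spp1 shows 1 high saline library, Itgb3 is highest at Day 3, all Day 8 libraries are highest for Itgb4, and Itgb8 is at or near 0 at Day 3.

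The stromal, muscle and vascular chains leaned below saline at Day 3, with 11 of 12 log2 fold changes negative and a median of -0.57, and 9 of 12 negative at Day 8 with a median of -0.21. Itgb1, the beta chain shared by most of these receptors, did not pass and stood at 525 and 414 CPM in saline, 535 and 526 at Day 3 and 311, 466 and 441 at Day 8. Its Day 3 value was negative on the scale of the test (-0.24, limma), although both Day 3 libraries lay above saline in CPM. Itga11, a collagen receptor chain of fibroblasts, stood at 8.47 and 2.59 CPM in saline, 1.19 and 0.518 at Day 3 and 1.16, 4.60 and 3.76 at Day 8. Both Day 3 libraries and Day 8 replicate 1 lay below both saline libraries. Its log2 fold change at Day 3 was -2.26 (SE 0.83, limma, adjusted p of 0.624), and it no longer passed without saline replicate 1 (-1.37) or Day 3 replicate 2 (-1.79). In counts, the saline libraries exceeded Day 3 replicate 2 by 10-fold, with a 95% interval of 4.14 to 31.5 that covers counting error only. Day 8 exceeded Day 3 by 1.53 on the log2 scale (SE 0.76), which did not pass, and by 2.07 without Day 8 replicate 1, which did.

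The remaining chains of this group did not pass. Itga1, the other collagen receptor chain of stroma and muscle, ranged from 2.68 CPM in saline replicate 2 to 13.7 in Day 8 replicate 3. Itga8, which binds nephronectin, ranged from 0.694 CPM in Day 8 replicate 1 to 6.16 in Day 8 replicate 2, and Itga9, a tenascin receptor chain, from 13.2 to 47.1 CPM in the same libraries. Itga5, the fibronectin receptor chain, lay between 1.27 and 2.87 CPM, Itga7, the laminin receptor chain of muscle, between 4.04 and 10.5, and Itga10 between 0.347 and 2.90. Myh11 and 7 more smooth muscle markers summed to 2595 and 1686 CPM in saline, 3512 and 3815 at Day 3 and 2026, 4573 and 4280 at Day 8, and the 8 stromal markers to between 7933 and 14235 CPM. The 8 endothelial markers summed to 227 and 162 CPM in saline, 191 and 199 at Day 3 and 152, 293 and 303 at Day 8. The 6 adipocyte markers, all of which passed as lower at Day 8 against saline, summed to 353 and 1756 CPM in saline, 1827 and 204 at Day 3 and 142, 196 and 137 at Day 8. The part of these cells in the integrin and laminin levels was not tested.

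The leukocyte integrins were, in sum, lower at Day 3 than in saline and spread widely at Day 8. The 8 genes added up to 100 and 79.2 CPM in saline, 59.2 and 57.1 at Day 3 and 34.9, 68.6 and 86.7 at Day 8. The largest part in saline was Itgam, at 35.6 and 32.2 CPM, a level that is uncertain for the reason given below. Itgae went the other way at Day 3, by 1.37 on the log2 scale (SE 0.89, limma, not passed). Day 8 replicate 1 was lowest, and Day 8 replicate 3 lay between the saline libraries. The 10 macrophage and leukocyte markers summed to 537 and 510 CPM in saline, 332 and 253 at Day 3 and 214, 491 and 547 at Day 8, with 3 of 10 lower at Day 3 and none higher, and at Day 8 2 lower and 1 higher. The 6 neutrophil markers summed to 165 and 216 CPM in saline, 169 and 148 at Day 3 and 118, 159 and 188 at Day 8, and 3 of the 5 tested passed as lower at each time. Retnlg stood at 75.8 and 60.1 CPM in saline, 139 and 128 at Day 3 and 84.7, 132 and 160 at Day 8, above saline in all 5 libraries but not passed. It was the largest part of the sum in each library other than saline replicate 2, where S100a8 stood at 70.7 CPM and S100a9 at 64.1. The genes of the calprotectin subunits, S100a8 and S100a9, passed as lower, at -2.86 and -2.73 on the log2 scale at Day 3 (limma) and -2.49 and -2.79 at Day 8 (edgeR). The 10 T and NK cell markers summed to 27.0 and 25.3 CPM in saline, 37.6 and 34.2 at Day 3 and 31.5, 90.4 and 108 at Day 8, of which 7 were tested and 4 passed as higher at Day 8. Of the T cell genes in this list, Cd3e was at 0 to 0.363 CPM and was not tested. Cd3g lay between 0.121 and 1.83 CPM and did not pass. The part of these cells in the integrin levels was not tested. By class, the median log2 fold change at Day 3 was -0.41 for the 8 leukocyte integrins and -0.37 for the 17 epithelial and stromal ones, and at Day 8 it was 0.01 and -0.21.

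**Figure D5:**
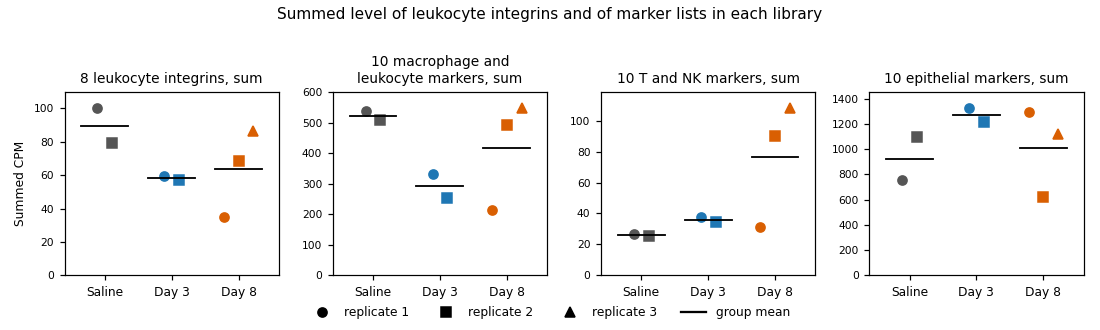
Summed CPM (vertical axis, starting at 0) of the 8 leukocyte integrins and of 3 marker lists in each library by group (horizontal axis); marker shapes are replicates and lines are group means. The integrin sum and the macrophage marker sum are both lowest in Day 8 replicate 1, at 34.9 and 214 CPM, while the T and NK marker sum is highest in Day 8 replicates 2 and 3.

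Itga4, the alpha chain that binds VCAM1 and fibronectin, stood at 25.3 and 10.6 CPM in saline, 10.5 and 9.95 at Day 3 and 5.55, 5.01 and 11.3 at Day 8. Saline replicate 1 lay above all other libraries, and Day 8 replicate 3 lay above saline replicate 2, so the groups overlapped. At Day 8 the log2 fold change was -1.30 (SE 0.53, edgeR, adjusted p of 0.956), and it no longer passed without saline replicate 1 (-0.54), Day 8 replicate 1 (-1.13) or Day 8 replicate 2 (-1.08). Itgam, the CD11b chain of macrophages and neutrophils, stood at 35.6 and 32.2 CPM in saline, 23.1 and 22.5 at Day 3 and 10.8, 14.9 and 26.5 at Day 8. All 5 CXCL12 libraries lay below both saline libraries, with log2 fold changes of -0.60 (SE 0.41, limma) at Day 3 and -0.95 (SE 0.41, edgeR) at Day 8, neither of which passed. The Day 8 value was -0.70 without its replicate 1, and it passed without its replicate 3 (-1.40) and by limma (-1.07). Of the 50-base words near the transcript ends of Itgam, 30.1% were shared with transcripts of other genes, more than for any other of the 39, and the authors counted multiple alignments, so its level is uncertain.

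Itgad, the CD11d chain of tissue macrophages and NK cells, was rare and highest at Day 8. It had 1 and 6 counts in the saline libraries, 2 in Day 3 replicate 2 and 5, 34 and 15 at Day 8, or 0.121 and 0.575 CPM in saline, 0.00448 and 0.207 at Day 3 and 0.579, 2.79 and 1.53 at Day 8. Every Day 8 library lay above all others, Day 8 replicate 1 by less than 0.1 CPM. The log2 difference between Day 8 and Day 3 was 2.73 (SE 1.07, limma, adjusted p of 0.693), and 3.23 without Day 8 replicate 1. It no longer passed without Day 3 replicate 1 (2.02) or Day 3 replicate 2 (3.37), and failed the filter on low values without Day 8 replicate 2 or 3. Nor did it pass with 0.1 as the value added before the logarithm, so this result depends on that value. In counts, the Day 8 libraries exceeded Day 3 replicate 2 by 8.5-fold with a 95% interval of 2.24 to 72.0. Against saline the log2 fold change at Day 8 was 2.16 (SE 1.12), and 2.55 without Day 8 replicate 1, and neither passed. Itgax, the CD11c chain of dendritic cells, lies beside Itgam and Itgad on chromosome 7 (128129526 to 128150657, GRCm38.p6) and stood at 7.5 and 3.64 CPM in saline, 3.87 and 3.52 at Day 3 and 1.74, 8.54 and 8.85 at Day 8. These neighbours on one chromosome did not order the libraries alike.

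The β2 chain Itgb2, which pairs with Itgal, Itgam, Itgax and Itgad, stood at 12 and 22.8 CPM in saline, 10.3 and 8.91 at Day 3 and 8.33, 19.5 and 17.6 at Day 8. Its log2 fold change at Day 3 was -0.78 (SE 0.47, limma, not passed), with both Day 3 libraries below saline. Itgal, the LFA-1 alpha chain of lymphocytes, ranged from 4.50 CPM in saline replicate 2 to 12 in Day 8 replicate 3. Itgae, the CD103 chain of intraepithelial lymphocytes, lay between 0.347 and 1.76 CPM, and Itgb7, its partner, between 2.31 and 7.99 CPM.

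Among the 8 other laminin genes, 7 log2 fold changes against saline were negative at Day 3, with a median of -0.45, and 5 at Day 8, with a median of -0.07, and Lama1 at Day 3 was the only one that passed. Lama2, the alpha chain around muscle cells, stood at 21.2 and 16.3 CPM in saline, 12.7 and 14.1 at Day 3 and 20, 28.6 and 34.1 at Day 8. Both Day 3 libraries were below all others and 2 Day 8 libraries above all others. The log2 difference between Day 8 and Day 3 was 1.03 (SE 0.31, limma, adjusted p of 0.687), and 1.24 without Day 8 replicate 1. It no longer passed without Day 3 replicate 1 (0.92), Day 8 replicate 2 (0.99) or Day 8 replicate 3 (0.87). Against saline at Day 8 it was 0.56 (SE 0.34), and 0.75 without Day 8 replicate 1, and neither passed.

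Lama1, the alpha chain of embryonic and some epithelial basement membranes, was low at Day 3 and uneven at Day 8. It stood at 4.72 and 5.84 CPM in saline, 1.08 and 0.311 at Day 3 and 1.85, 3.78 and 0.305 at Day 8. Every CXCL12 library lay below both saline libraries. At Day 3 the log2 fold change was -2.75 (SE 0.97, limma, adjusted p of 0.624), and the saline libraries exceeded Day 3 replicate 2, which had 3 counts, by 17.2-fold with a 95% interval of 5.72 to 84.8. With any one of the 4 libraries left out the value lay between -3.40 and -2.06, and it passed only without Day 3 replicate 1. At Day 8 it was -1.40 (SE 0.87, not passed), -1.35 without Day 8 replicate 1, -0.90 without Day 8 replicate 3 and -2.29 without Day 8 replicate 2, where it passed. Inha, a gene of ovarian granulosa cells, stood at 44.2 and 138 CPM in saline, 0.331 and 1.55 at Day 3 and 14.7, 133 and 0.305 at Day 8. Inha and Lama1 were both lowest in the Day 3 libraries and Day 8 replicate 3 but did not order the other libraries alike. Day 8 replicate 2 lay above saline replicate 1 for Inha and below it for Lama1. Inha was singled out after its values had been seen. At Day 3 against saline, 3 of the 6 tested genes of its list passed as lower by limma, Inha among them, and none as higher. Cyp11a1 stood at 18.4 and 93.2 CPM in saline, 0.653 and 0 at Day 3 and 7.52, 759 and 0.102 at Day 8. Cyp17a1 stood at 8.71 and 74.2, 0.00823 and 0, and 2.31, 42.8 and 0.203 CPM in the same order. Star stood at 15.5 and 15.3 CPM in saline, 4.52 and 5.8 at Day 3 and 5.09, 310 and 8.74 at Day 8. Other genes of the list went another way. Foxj1 stood at 2.9 and 14.7 CPM in saline, 10.6 and 19.8 at Day 3 and 3.36, 13.2 and 0 at Day 8. Ovgp1, the oviduct glycoprotein gene, stood at 524 and 566 CPM in saline, 718 and 754 at Day 3 and 315, 654 and 238 at Day 8, and the granulosa cell gene Amh was at 0.242 CPM or less in all libraries. The 7 ovary and oviduct markers summed to 613 and 901 CPM in saline, 734 and 781 at Day 3 and 347, 1911 and 247 at Day 8. The sample titles name uterus only, and any part of ovarian tissue in the Lama1 values was not tested.

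The more abundant basement membrane chains differed less. Lamb1, the common beta chain, stood at 287 and 146 CPM in saline, 134 and 130 at Day 3 and 115, 198 and 209 at Day 8. Saline replicate 1 was highest, and the log2 fold change at Day 3 was -0.90 (SE 0.44, limma, not passed), or -0.30 without that library, and it passed without saline replicate 2. Nid1, a nidogen, stood at 148 and 89.0 CPM in saline, 70.7 and 74.4 at Day 3 and 70.0, 117 and 148 at Day 8. Its log2 fold change at Day 3 was -0.83 (SE 0.42, not passed), and -1.28 without saline replicate 2, which passed. Nid2, the other nidogen, lay between 9.35 and 15.2 CPM. Lamc1, the common gamma chain, lay between 44.7 and 71.6 CPM, Lama5, the alpha chain of mature epithelium and endothelium, between 16.5 and 25.3, and Lama4, the vascular alpha chain, between 19.9 and 46.3. Lamb2, the beta chain of muscle and vessels, ranged from 30.7 to 73.5 CPM, and Lamc3 had between 5 and 31 counts in the count libraries. The median log2 fold change of the 12 laminins and nidogens was -0.39 at Day 3, with 9 negative, and -0.07 at Day 8, with 7 negative. The medians over all genes were 0.01 at Day 3 and -0.01 at Day 8.

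The other RGD and matricellular ligands of integrins, 15 of 18 of which were tested, included Thbs1, which was lower at both times, Fn1 and Tgfbi, which passed as lower at Day 3, and Tnc, which passed as lower at Day 8 although its groups overlapped. At Day 8 against saline 2 of 15 passed, both lower, at Day 3 3 of 15 passed, all lower, and 1 passed between the days. Thbs1, thrombospondin 1, stood at 77.5 and 41.3 CPM in saline, 16.5 and 26.4 at Day 3 and 17.5, 17.2 and 17.1 at Day 8. All 5 CXCL12 libraries lay below both saline libraries, and the Day 8 libraries nearly coincided. The log2 fold change was -1.78 (SE 0.33, edgeR, adjusted p of 0.956) at Day 8 and -1.49 (SE 0.39, limma, adjusted p of 0.624) at Day 3. DESeq2 gave the same Day 8 value with an adjusted p of 0.00973. At Day 8 it passed with any one library left out, with values between -2.16 and -1.26, and at Day 3 it no longer passed without saline replicate 1 (-0.99) or Day 3 replicate 1 (-1.13).

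Tgfbi, a matrix protein induced by TGF-β that binds integrins, stood at 95.6 and 67.9 CPM in saline, 23.5 and 20.7 at Day 3 and 83.7, 119 and 242 at Day 8. The Day 3 libraries lay far below all others. The log2 value was -1.93 (SE 0.48) for Day 3 against saline and 2.64 (SE 0.43) for Day 8 against Day 3 by limma, with adjusted p of 0.624 and 0.512, and the latter was 2.99 without Day 8 replicate 1. Both passed with any one library left out. Fn1, fibronectin, stood at 396 and 232 CPM in saline, 173 and 158 at Day 3 and 179, 143 and 156 at Day 8, all 5 below saline. Its log2 fold change was -1.19 (SE 0.33, limma) at Day 3 and -0.98 (SE 0.32, edgeR) at Day 8, the latter short of a fold change of 2, and -1.07 without Day 8 replicate 1 and -1.31 without saline replicate 2, which passed. At Day 3 it no longer passed without saline replicate 1 (-0.68). Tnc, tenascin C, stood at 38.7 and 18.7 CPM in saline, 14.3 and 14.5 at Day 3 and 9.26, 18.9 and 5.90 at Day 8. Saline replicate 1 was highest, and Day 8 replicate 2 lay level with saline replicate 2. Its value was -0.91 (SE 0.57, limma, not passed) at Day 3 and -1.33 (SE 0.54, edgeR) at Day 8, and the latter no longer passed without Day 8 replicate 1 (-1.21), Day 8 replicate 3 (-1.03) or saline replicate 1 (-0.71).

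Among the proteins that link integrins to the cytoskeleton, few differed. Of 24 effectors tested, none passed at Day 8 against saline or between the days, and Tln2, a talin that activates integrins, passed as lower at Day 3. Tln2 stood at 51.9 and 26.8 CPM in saline, 17.8 and 17.4 at Day 3 and 18.7, 26.6 and 21.0 at Day 8. It differed from saline by -1.09 (SE 0.38, limma) on the log2 scale at Day 3 and by -0.83 (SE 0.36, edgeR, not passed) at Day 8. The Day 3 value no longer passed without either Day 3 library. Without saline replicate 1 the values were -0.57 and -0.27, without saline replicate 2 the Day 8 value was -1.22 and passed, and without Day 8 replicate 1 it was -0.72.

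Of 16 tested genes for other basement membrane proteins and laminin receptors, none passed against saline at either time and 1 was higher at Day 8 than at Day 3. This was Col4a6, a collagen IV chain of smooth muscle and epithelium, at 9.32 and 4.31 CPM in saline, 3.34 and 4.46 at Day 3 and 5.55, 17.0 and 14.5 at Day 8. The log2 difference between the days was 1.45 (SE 0.56, limma), and 1.90 without Day 8 replicate 1. Left without any other of the 5 libraries, it no longer passed, with values between 1.18 and 1.68. Agrn, the proteoglycan agrin, had the smallest P of this list at Day 8 against saline (log2 fold change -0.61, SE 0.36, edgeR, adjusted p of 0.956) and passed without saline replicate 2 (-1.02). Of 8 tested ligands of leukocyte integrins none passed in any comparison, and Vcam1, the endothelial ligand of Itga4, had the smallest P at Day 8. Vcam1 stood at 22.6 and 12.6 CPM in saline, 8.27 and 8.09 at Day 3 and 4.86, 11.5 and 11.4 at Day 8, all 5 below saline. Its value at Day 8 was -0.92 on the log2 scale (SE 0.48, edgeR), and -0.62 without Day 8 replicate 1.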

How the data were processed

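Uterine libraries made with the QuantSeq 3′ kit were compared in 3 groups (2 saline, 2 CXCL12 Day 3, 3 CXCL12 Day 8). The study's methods name Bowtie2 for alignment, Bedtools coverage for counting reads with unique or multiple alignments, and edgeR for quantile normalization. The submitters' processing notes list the builds hg19 and mm10, with no role for either, and versions are not given in the sources used here. The deposited values are unnormalized read counts per gene symbol in 6 libraries. The deposited values of Day 3 replicate 1 are log2(normalized count + 1). Once turned back to a linear scale and divided by 1.0515, 97.2% of 3661 low values of this library lay within 0.1 of a whole number. Each library lists 23282 named entries, followed in all but saline replicate 1 by 2028 empty lines that were dropped, and the 35 symbols that stand on more than one entry were kept apart.

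For Day 8 against saline, edgeR 4.0.16 was run on the 6 count libraries with 3 group means (quasi-likelihood test, TMM, filterByExpr, 15388 genes, 3 residual degrees of freedom). For comparisons with Day 3, limma 3.58.1 was run with a trended prior on log2(normalized count + 1) of all 7 libraries, brought to a common total and quantile-normalized (14876 genes at 1 CPM or more in at least 2 libraries, 4 residual degrees of freedom), where fold changes of low genes are understated. Adjusted p-values are Benjamini-Hochberg values over all genes tested. The common biological coefficient of variation was 42.2%. Intervals of count ratios are exact 95% binomial intervals and cover counting error only. The fits were tested on simulated data. Genes that could be named were all 39 members and, in each pathway list, those that passed in any comparison and the one with the smallest P at Day 8 against saline. One further gene that the choice by symbol covers is not reported here, although it stayed in the fits. The members and lists were chosen with earlier results of these data known. Shared words of 50 bases were sought in the last 500 bases of transcripts. The labels number replicates alike in the groups but do not say that a number marks one animal. Alternatives were RLE and upper-quartile scaling, DESeq2 1.42.0 in R 4.3.3, limma in place of edgeR and the reverse, other filters, a pseudocount of 0.1, no quantile normalization, the compared groups alone, a replicate block, and leaving out each library.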

Additional observations from a re-analysis of the deposited data

Results flagged for a closer look

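For 2 of the 39 genes every Day 3 library lay on one side of the saline mean and every Day 8 library on the other (5.13%, beside 5.73% of all 14876 genes), and the difference was tested by the Day 8 against Day 3 comparison in limma. Lama2 was below the saline mean in both Day 3 libraries and above it in all Day 8 libraries, and the days differed by 1.03 on the log2 scale, which passed. Itga6 went the opposite way and lay higher at Day 3 and lower at Day 8, with a difference of -0.43, which did not pass. Neither passed an adjusted p of 0.1.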

How the results depend on the processing

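With every other normalization, filter, test and choice of groups tried for Day 8 against saline, 2 or 3 of the 39 genes passed. The replicate block also gave 2 there, Itga4 and Itgam in place of Itgb4 (0.89), while over all genes it gave 157 in place of 453. It gave 4 genes at Day 3 against saline and 2 in place of 3 (Itgad and Itgb8) between the days. Deviations of same-numbered libraries from their group means correlated at between -0.17 and 0.00. In a group of 2 these deviations mirror each other, so the correlations cannot exclude a pairing. The numbers were not taken as a pairing because the labels do not state one. Leaving out one library, and where that leaves 1 in a group the lone library is assumed to vary like the others, gave between 1 and 3 members at Day 8 against saline, between 1 and 9 at Day 3 against saline and between 1 and 7 between the days. The 9 were seen without saline replicate 2, where 2828 of all genes passed in place of 671, and the 7 without Day 8 replicate 1, where 1675 passed in place of 693. At Day 8 against saline 1527 of all genes passed without saline replicate 2, 1027 without Day 8 replicate 1, 286 without saline replicate 1 and 229 without Day 8 replicate 3. At Day 3 against saline 1044 passed without quantile normalization, and between 224 and 299 without saline replicate 1 or either Day 3 library. Between the days, 279 and 315 passed without Day 3 replicate 1 or 2, and 426 with the block. Itgad failed the filter between the days without Day 8 replicate 2 or 3, so those settings gave it no value. Of 431 alternative fold changes computed, 2 reversed, both for Spp1 without saline replicate 2 (0.98 and 0.73; -2.43 and -2.64 without saline replicate 1), 366 kept their direction and side of the threshold, 41 fell below it and 22 rose past it. The cause of these changes was not tested. The depth limits Itgb8, Itgad, Itga2, Itgae, Itga10 and Lama1, which had 3 counts or fewer in at least 1 count library.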
